A study of Mus musculus with 18 samples.

Results

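Exercise was set against no exercise on each of 2 diets in mouse liver, and the quantity described here is how far the exercise difference on the HF diet departed from that on the LF diet. It was computed for each miRNA as (HF+Ex minus HF) minus (LF+Ex minus LF) on log2(RPM + 1), where RPM is the deposited unit, reads scaled to a common library total. The value is negative where exercised livers were lower relative to their own controls on HF than on LF. It used 12 of the 18 libraries of the study, 3 in each of 4 groups, and 351 of the 758 listed miRNAs, those that reached 5 RPM in 3 or more of the 18 libraries. The HF+Ex group was fed the HF diet with Ex, and the HF group was fed the same diet without it. The LF+Ex group was fed the LF diet with Ex, and the LF group was fed that diet alone. All mice were wild-type C57BL/6J, were placed on their regimen at 5 weeks of age and gave liver at 62 weeks. The labels do not spell out the abbreviations, which are read here as high-fat diet, low-fat diet and exercise, and they give no type or amount of exercise. They do not state whether replicate libraries are from different animals. The p-values therefore reflect only how much these samples vary, which can be technical variation.

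A miRNA is a short RNA cut from a hairpin precursor, and it guides the silencing machinery to messenger RNAs that pair with its seed, the bases near its 5′ end. miRNAs with the same seed form a family whose members can bind overlapping sets of messages, even when they are made from different chromosomes. In the liver, miR-148a and miR-33 are known as repressors of cholesterol genes, among them the cholesterol exporter ABCA1 for both and the LDL receptor for miR-148a. The miR-17 family is known for promoting cell cycle entry, and let-7 for restraining growth and insulin signalling.

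The mature sequences of the miRNAs on which the results turn are given below, from RefSeq on GRCm38.p6, 5′ to 3′, with the seed (bases 2 to 8) in capitals. The first set is the miR-148/miR-152 family, of which miR-148a-3p stood out.
miR-148a-3p: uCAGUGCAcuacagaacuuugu
miR-148b-3p: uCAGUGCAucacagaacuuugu
miR-152-3p: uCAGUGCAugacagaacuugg
The second is miR-33-5p, which no other named miRNA matches in its seed.
miR-33-5p: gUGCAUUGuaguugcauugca
The third is the miR-17 family, shown because its members were not alike in the data.
miR-17-5p: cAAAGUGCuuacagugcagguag
miR-20a-5p: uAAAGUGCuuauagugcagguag
miR-106b-5p: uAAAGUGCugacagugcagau
miR-93-5p: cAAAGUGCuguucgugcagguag
The fourth is part of the let-7 family, shown because its members lay on the same side of 0.
let-7a-5p: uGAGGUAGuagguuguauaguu
let-7b-5p: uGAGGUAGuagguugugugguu
let-7c-5p: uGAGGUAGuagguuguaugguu
let-7f-5p: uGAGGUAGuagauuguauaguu
Counted from the 5′ end, miR-148b-3p differs from miR-148a-3p by C9U and U10C, and miR-20a-5p differs from miR-17-5p by C1U and C12U. A single substitution separates let-7a-5p from let-7c-5p (A19G) and from let-7f-5p (G12A). How reads that fit several such miRNAs were assigned is not given in the sources used here, so the values of close relatives are uncertain in that respect.

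The livers had the profile of hepatocytes in all 12 libraries, with miR-122-5p, the defining hepatocyte miRNA, at 20.9% to 29.0% of the listed reads. Depth, in megareads (M) on listed miRNAs, was lowest in HF+Ex 1 (2.38 M) and highest in LF+Ex 2 (10.5 M). HF+Ex 1 also held 613 RPM of miRNA entries that resemble fragments of other RNAs, against 60.0 to 272 RPM in the other 11 libraries. LF 1 was the highest of the 12 libraries in summed miRNAs of leukocytes (9086 RPM), epithelia (8784 RPM) and stellate cells (15550 RPM). Counts of calls and the marker lists most affected are also given without LF 1 or HF+Ex 1.

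The exercise difference departed between the diets for 3 of 351 miRNAs (0.855%) at an adjusted p under 0.05 in limma, all lower: miR-148a-3p, miR-33-5p and miR-17-5p. Without adjustment, 58 miRNAs (16.5%) had p under 0.05, 34 of them higher and 24 lower. The median over all 351 was 0.17, with 219 above 0 and 132 below. Rescaling each library by its median ratio to the others moved that median by -0.17, to about 0, as this rescaling does by design. After it 8 miRNAs were called, 1 higher and 7 lower, including the 3 above. In the 12 libraries alone, with the spread not shared with the other groups, 12 were called, 7 higher and 5 lower.

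miR-148a-3p, an abundant miRNA of hepatocytes, was lower with exercise on HF, while all LF+Ex libraries lay above the LF libraries. It stood at 13651, 11113 and 10722 RPM in HF+Ex livers, against 28463, 20913 and 22733 RPM in HF livers. It stood at 34248, 31348 and 28262 RPM in LF+Ex livers, against 15739, 18107 and 12748 RPM in LF livers. Neither pair of groups overlapped, and each HF+Ex library also lay below every LF+Ex library. The means were 11829 ± 1590.4 RPM in HF+Ex, 24036 ± 3940.1 RPM in HF, 31286 ± 2994 RPM in LF+Ex and 15531 ± 2686 RPM in LF (SD, n = 3 each). HF+Ex and LF overlapped in their libraries, as did HF and LF+Ex. On the log2 scale it fell by 1.02 on HF (SE 0.22, adjusted p = 0.0429), which also passed in 9 of 22 alternatives (adjusted p from 0.0148 to 0.28) but not after rescaling, for example. On LF the difference was 1.02 (SE 0.22, adjusted p = 0.0843), which did not pass. The difference between the diets was -2.04 (SE 0.30, adjusted p = 0.00212), and it passed in each of the 22 alternatives tried, with adjusted p from 4.91e-04 to 0.0105. Mir148a lies at chr6:51269812-51269910 on the minus strand (GRCm38), where no other gene is annotated on that strand.

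As a share of listed reads, miR-148a-3p took 1.41%, 1.15% and 1.11% in HF+Ex livers, against 2.95%, 2.17% and 2.35% in HF livers. In LF+Ex livers it took 3.54%, 3.23% and 2.93%, against 1.63%, 1.87% and 1.31% in LF livers. Its share was at most 3.54% of the listed reads, and no fit scaled without it was run. The opposite arm of the same hairpin, miR-148a-5p, lay between 59.8 and 105 RPM in HF+Ex livers and between 65.6 and 111 RPM in HF livers. It lay between 79.1 and 90.8 RPM in LF+Ex livers and between 66.6 and 94.3 RPM in LF livers, and its difference between the diets was -0.24 (SE 0.36, adjusted p = 0.763). Both pairs of groups overlapped in this arm.

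The relatives of miR-148a-3p with the same seed did not pass. miR-148b-3p, from an intron of the coat protein gene Copz1, stood at 532, 423 and 344 RPM in HF+Ex livers, against 682, 811 and 841 RPM in HF livers. It stood at 547, 421 and 634 RPM in LF+Ex livers, against 535, 413 and 502 RPM in LF livers. All HF+Ex libraries lay below all HF libraries, while the LF pair overlapped, and the difference between the diets was -0.99 (SE 0.36, adjusted p = 0.193). It passed in 1 of 22 alternatives, after rescaling, at -1.16 (adjusted p = 0.0466). miR-152-3p, from an intron of Copz2, had a difference of -0.03 (SE 0.29, adjusted p = 0.976). miR-148a-3p made up 80.7% to 94.9% of the summed RPM of the 3 miRNAs, so the family sum followed it: 16130, 13780 and 12870 RPM in HF+Ex, 31400, 24370 and 26060 RPM in HF, 36550, 33030 and 30950 RPM in LF+Ex, and 18330, 20400 and 15350 RPM in LF.

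miR-33-5p, made from an intron of Srebf2, the gene of a master activator of cholesterol synthesis, had a like pattern at a far lower level. It stood at 11.8, 6.68 and 8.03 RPM in HF+Ex livers, against 13.2, 21.2 and 24.2 RPM in HF livers. It stood at 11.8, 12.7 and 12.99 RPM in LF+Ex livers, against 6.35, 5.14 and 5.57 RPM in LF livers. No library overlapped within either diet, but the gap on HF was narrow, between 11.8 RPM in HF+Ex 1 and 13.2 RPM in HF 1. The means were 8.83 ± 2.65 RPM in HF+Ex, 19.5 ± 5.67 RPM in HF, 12.5 ± 0.607 RPM in LF+Ex and 5.69 ± 0.613 RPM in LF (SD, n = 3 each). HF was thus highest, followed by LF+Ex, HF+Ex and LF, and HF+Ex 1, at 11.79 RPM, lay just below LF+Ex 1, at 11.82 RPM. These levels rest on few reads: 29, 50 and 72 in HF+Ex, 87, 89 and 157 in HF, 87, 137 and 108 in LF+Ex, and 49, 37 and 51 in LF, as implied by the RPM steps.

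The exercise difference of miR-33-5p was -1.05 on HF (SE 0.26, adjusted p = 0.0928) and 1.02 on LF (SE 0.26, adjusted p = 0.166), so it passed on neither diet. The difference between the diets was -2.07 (SE 0.37, adjusted p = 0.00824), and it passed in all 21 alternatives that test it, with adjusted p from 0.00253 to 0.0379. The remaining alternative, a filter of 50 RPM, does not include it. The opposite arm, miR-33-3p, lay between 2.12 and 3.66 RPM in HF+Ex livers, against 5.32 to 6.01 RPM in HF livers. In LF+Ex livers it lay between 3.26 and 5.41 RPM, against 1.95 to 5.02 RPM in LF livers. The HF pair did not overlap and the LF pair did, and the difference between the diets was -0.89 (SE 0.46, adjusted p = 0.357). Mir33 lies at chr15:82198122-82198190 on the plus strand.

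**Figure D1:**
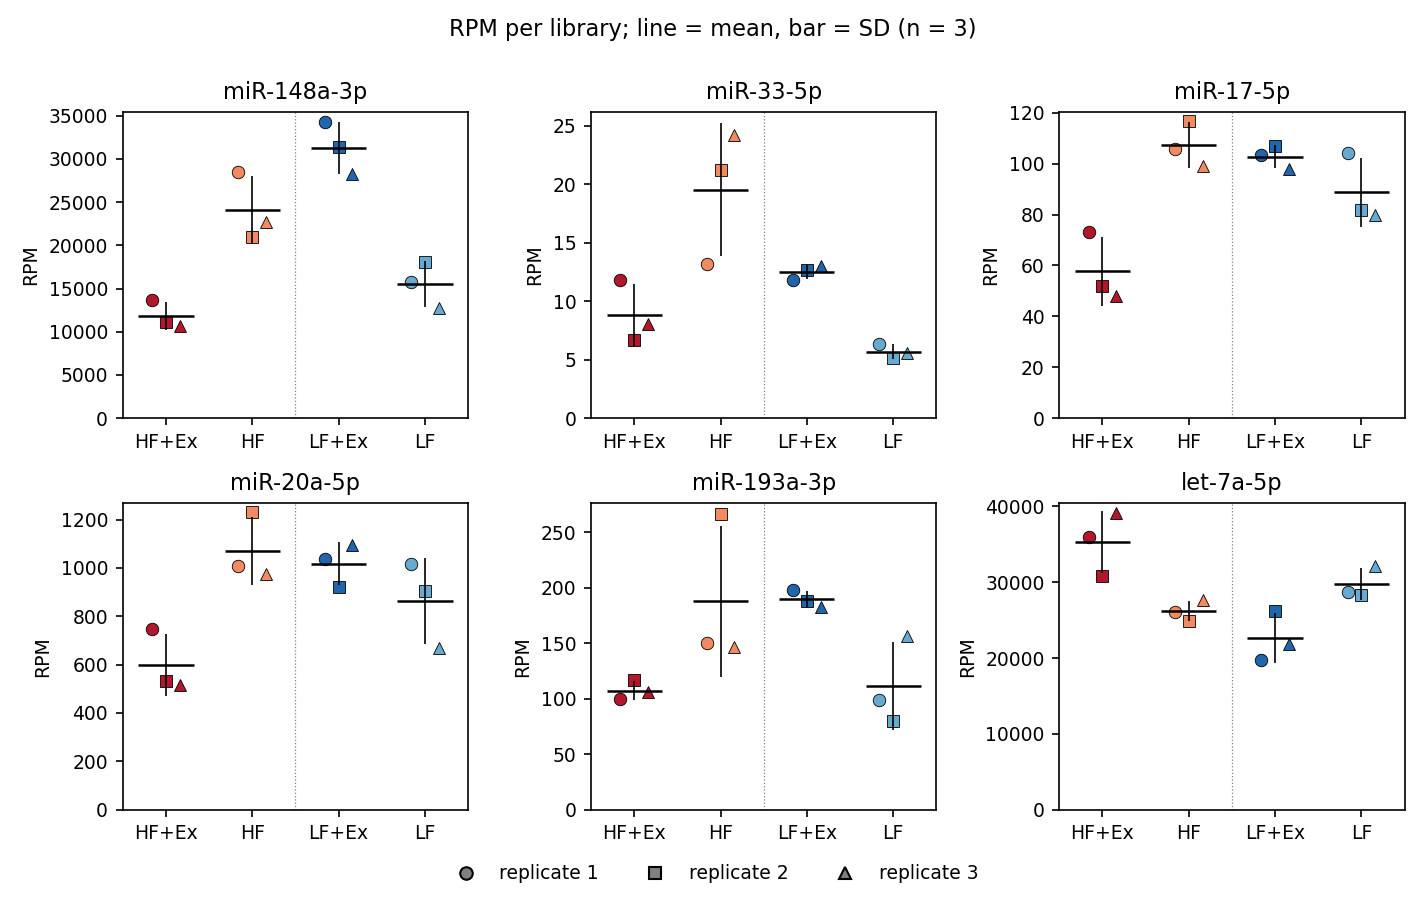
RPM (vertical axes, linear from 0) of 6 miRNAs in each library of HF+Ex, HF, LF+Ex and LF; marker shapes are replicate numbers, horizontal lines are means and vertical bars SDs (n = 3). miR-148a-3p and miR-33-5p lie lower in HF+Ex than in HF and higher in LF+Ex than in LF with no overlap, miR-17-5p and miR-20a-5p are separated on HF but overlap on LF, and let-7a-5p lies higher in HF+Ex than in HF and lower in LF+Ex than in LF.

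miR-17-5p, a member of the miR-17-92 cluster that favours cell division, was lower with exercise on HF. It stood at 73.2, 52.0 and 47.9 RPM in HF+Ex livers, against 106, 117 and 99.0 RPM in HF livers. It stood at 103, 107 and 97.9 RPM in LF+Ex livers, against 104, 81.9 and 80.0 RPM in LF livers. The HF+Ex libraries lay below the other 9, and the LF+Ex and LF libraries overlapped through LF 1. It fell by 0.90 on HF (SE 0.17, adjusted p = 0.0235; called in 16 of 22 alternatives, adjusted p from 0.00108 to 0.235), and the LF difference was 0.22 (SE 0.17). The difference between the diets was -1.12 (SE 0.24, adjusted p = 0.0286), over a range of adjusted p of 0.00245 to 0.117 in 22 alternatives. It was called in 12 of them, and of the 12 omissions of 1 library only those of HF+Ex 1 or LF 1 kept the call. Mir17 lies at chr14:115043671-115043754 on the plus strand, in an exon of the host transcript Mir17hg.

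miR-20a-5p, made from the same transcript and differing from miR-17-5p by 2 bases outside the seed, gave nearly the same differences. It stood at 748, 534 and 515 RPM in HF+Ex livers, against 1006, 1231 and 975 RPM in HF livers. It stood at 1039, 921 and 1094 RPM in LF+Ex livers, against 1018, 906 and 670 RPM in LF livers. The HF+Ex libraries lay below all HF libraries, while 2 of 3 LF+Ex libraries lay above all LF libraries. It fell by 0.85 on HF (SE 0.19, adjusted p = 0.0483), which also passed in 8 of 22 alternatives (adjusted p from 0.013 to 0.358) but not after rescaling, and the LF difference was 0.25. The difference between the diets was -1.10 (SE 0.27, adjusted p = 0.0621), which did not pass. It passed in 5 of 22 alternatives, rescaling among them, with adjusted p from 0.00862 to 0.178.

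The other members of these clusters were not uniform. miR-106b-5p, from an intron of the DNA replication gene Mcm7, had -0.95 (SE 0.37, adjusted p = 0.216), and its neighbour miR-93-5p had 0.25 (SE 0.28, adjusted p = 0.696). miR-93-5p is the most abundant miRNA with this seed, at 3231 to 3586 RPM in HF+Ex livers, and the summed RPM of the 6 listed miRNAs of the family differed by -0.06 between the diets. Among 16 tested miRNAs of the miR-17-92 and paralogue clusters, 1 was called lower (against 0.855% of all 351), 6 lay above 0 and 10 below, with a median of -0.22 (-0.38 rescaled). Of the same transcript as miR-17-5p, miR-18a-5p had -0.69, miR-19a-3p had -0.48, miR-19b-3p had -0.27 and miR-92a-3p had 0.78, with adjusted p from 0.216 to 0.505. The opposite arms miR-17-3p and miR-20a-3p had -0.43 (SE 0.25) and -0.17 (SE 0.43).

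On each diet alone there were few calls. On HF, 3 of 351 miRNAs (0.855%) fell with exercise, miR-17-5p, miR-148a-3p and miR-20a-5p, and none rose, while 30 (8.55%) had an unadjusted p under 0.05. The HF count ran between 0 and 5 when 1 library was left out: it was 0 without HF+Ex 2, HF+Ex 3, HF 1, HF 2 or HF 3, 5 without HF+Ex 1, and 1 without LF+Ex 1, LF+Ex 2 or LF+Ex 3. On LF, limma called 0 of 351 miRNAs, with 41 (11.7%) at an unadjusted p under 0.05, 11 higher and 30 lower. On HF the next smallest p after miR-33-5p belonged to miR-148b-3p at -0.86 (SE 0.26, adjusted p = 0.303) and miR-30e-3p at 0.47 (SE 0.15, adjusted p = 0.326). After miR-148a-3p the smallest p on LF belonged to miR-1247-5p, a miRNA of the imprinted Dlk1-Dio3 region, at -1.40 (SE 0.34, adjusted p = 0.141), with 9.92, 7.32 and 4.33 RPM in LF+Ex livers and 21.6, 15.2 and 23.2 RPM in LF livers. Next were miR-33-5p, miR-592-5p at 1.77 (adjusted p = 0.2), miR-145a-3p at -0.72 (adjusted p = 0.2) and miR-219-5p at 1.03 (adjusted p = 0.237). On LF, 69.5% of miRNAs lay below 0, with a median of -0.19. The median was about -0.02 after rescaling, which brings medians near 0 by design. Leaving out LF 2 gave 2 LF calls, miR-148a-3p and miR-592-5p.

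Averaged over both diets, limma called no miRNA for exercise, and 12 of 351 (3.42%) had an unadjusted p under 0.05. The average of miR-148a-3p was 0.00 and that of miR-33-5p was -0.02, since their opposite differences on the diets cancel in it. The smallest p belonged to miR-17-5p at -0.34 (SE 0.12, adjusted p = 0.881), followed by miR-592-5p at 0.95, miR-145a-3p at -0.36, miR-1948-3p at 0.43, miR-361-3p at 0.41 and miR-93-5p at -0.33, with the same adjusted p.

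**Figure D2:**
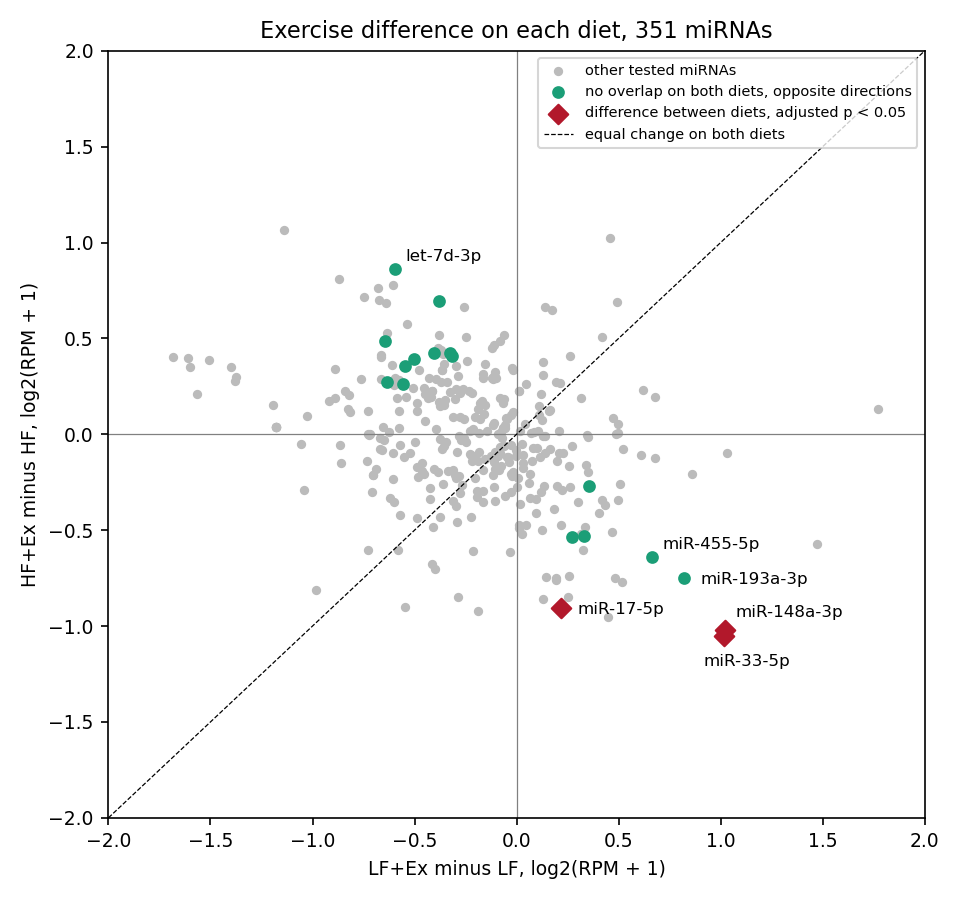
Difference between exercised and control livers on HF (vertical axis) against that on LF (horizontal axis), both in log2(RPM + 1), for 351 miRNAs. Red diamonds mark the 3 miRNAs called for the difference between diets, green points other miRNAs whose groups did not overlap on either diet and moved in opposite directions, and the dashed line marks equal differences. miR-148a-3p and miR-33-5p lie at the lower right edge of the cloud.

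Counting by overlap of the libraries, HF+Ex and HF did not overlap for 63 of 351 miRNAs (17.9%), 34 higher (9.69%) and 29 lower (8.26%). LF+Ex and LF did not overlap for 75 (21.4%), 22 higher (6.27%) and 53 lower (15.1%). On both diets at once there were 18: 17 (4.84%) in opposite directions and 1 (0.285%) in the same direction. The last was miR-138-5p, lower with exercise on both diets, at 2.44 to 3.48 RPM in HF+Ex livers against 3.65 to 8.57 RPM in HF livers. Of the 17, 10 (2.85%) lay higher with exercise on HF and lower on LF, and 7 (1.99%) lay lower on HF and higher on LF. Across the 351 miRNAs the exercise differences on the 2 diets, which share no library, had a Pearson correlation of -0.339 and a Spearman correlation of -0.333, and 212 (60.4%) had opposite signs. After rescaling Pearson's value was -0.34. miRNAs are not independent replicates and share library, depth and composition, so this is a description of these libraries.

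Beside miR-148a-3p and miR-33-5p, 2 members of the group that lay lower on HF and higher on LF had the next largest values. miR-193a-3p, a hepatocyte-enriched miRNA, stood at 99.6, 117 and 106 RPM in HF+Ex livers, against 150, 267 and 147 RPM in HF livers. It stood at 198, 188 and 183 RPM in LF+Ex livers, against 98.5, 79.7 and 156 RPM in LF livers. No libraries overlapped on either diet, and the difference between the diets was -1.57 (SE 0.41, adjusted p = 0.0883). That difference passed in 3 of 22 alternatives, rescaling among them (adjusted p = 0.0498), with adjusted p from 0.0395 to 0.193. miR-455-5p lay between 106 and 129 RPM in HF+Ex livers, against 160 to 226 RPM in HF livers, and between 172 and 201 RPM in LF+Ex livers, against 113 to 125 RPM in LF livers. Its difference between the diets was -1.30 (SE 0.47, adjusted p = 0.186), which passed in 1 of 22 alternatives (adjusted p from 0.0221 to 0.355). miR-130a-3p, known to repress the fat cell regulator PPARγ, had -0.86 (SE 0.25, adjusted p = 0.108), and it passed after rescaling.

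In the opposite direction the smallest p belonged to let-7a-5p. It stood at 35965, 30883 and 39071 RPM in HF+Ex livers, against 26111, 24882 and 27612 RPM in HF livers. It stood at 19725, 26177 and 21897 RPM in LF+Ex livers, against 28727, 28275 and 32166 RPM in LF livers. The groups did not overlap on either diet. The means were 35306.5 ± 4134 RPM in HF+Ex, 26202 ± 1367 RPM in HF, 22599.9 ± 3283 RPM in LF+Ex and 29723 ± 2128 RPM in LF (SD, n = 3 each). The difference was 0.42 on HF and -0.40 on LF, and that between the diets was 0.83 (SE 0.19, adjusted p = 0.0532), just outside the threshold. Over 22 alternatives its adjusted p ran from 0.0251 to 0.167, and it passed in 4.

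The let-7 family shared this direction. All 9 tested miRNAs with its seed, 8 let-7 5p arms and miR-98-5p, had values above 0 on HF and below 0 on LF, also after rescaling, although none passed on either diet or for the difference. Their median was 0.21 on HF and -0.40 on LF, and the difference between the diets had a median of 0.66 (0.49 rescaled), against 0.17 over all 351. The individual differences ran from 0.29 in let-7g-5p to 1.38 in let-7e-5p (SE 0.47, adjusted p = 0.153). The summed RPM of the let-7 5p arms and miR-98-5p was 153300, 137400 and 162200 in HF+Ex livers, against 126800, 127000 and 128800 in HF livers. In LF+Ex livers it was 93440, 116800 and 109500, against 136700, 134500 and 143600 in LF livers. The sums overlapped on neither diet. The 9 are not separate observations, since some are made from the same transcript, as let-7a-5p and let-7f-5p are in part from 6720427I07Rik on chromosome 13, and reads of near-identical members can be exchanged.

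A product of the opposite arm from that chromosome 13 transcript, let-7d-3p, had a larger difference and a different seed. It stood at 696, 469 and 584 RPM in HF+Ex livers, against 408, 203 and 382 RPM in HF livers. It stood at 332, 339 and 315 RPM in LF+Ex livers, against 543, 475 and 476 RPM in LF livers. The groups did not overlap on either diet, and the difference between the diets was 1.46 (SE 0.46, adjusted p = 0.143). let-7g-3p lay on the other side of 0, at -1.40 (SE 0.44, adjusted p = 0.143).

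Other miRNAs with a higher exercise difference on HF than on LF did not pass. Among the 12 with the smallest p were miR-128-3p, also reported to repress cholesterol export, at 0.90 (SE 0.24, adjusted p = 0.0941), miR-1247-5p at 1.75 (SE 0.48, adjusted p = 0.0941), miR-1198-5p at 1.13 (SE 0.31, adjusted p = 0.101) and miR-30a-3p at 0.73 (SE 0.21, adjusted p = 0.108). miR-1198-5p passed after rescaling, as the only call on the higher side. miR-128-3p lay between 123 and 140 RPM in HF+Ex livers, against 92.1 to 106 RPM in HF livers, and between 80.7 and 96.5 RPM in LF+Ex livers, against 111 to 135 RPM in LF livers. Of the other miRNAs without overlap on either diet, miR-664-5p had 1.08 (SE 0.44), miR-100-5p had 0.91 (SE 0.37) and let-7b-5p had 0.91 (SE 0.30), with adjusted p of 0.216, 0.216 and 0.149. The precursor of miR-664-5p overlaps the small nucleolar RNA gene Snora36b, and whether its reads are fragments of that RNA was not tested. The highest value of all, 2.20 for miR-10b-5p, had an SE of 1.03 (adjusted p = 0.294), and its libraries spread from 9.15 to 43.5 RPM within HF+Ex.

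Other seed families split between directions. The 3 tested members of miR-29, which represses collagen genes, lay below 0 with a median of -0.14, led by miR-29b-3p at -0.76 (SE 0.25, adjusted p = 0.143). The tested miR-30 5p arms were not alike. The 3 with a matched sequence, miR-30a-5p, miR-30c-5p and miR-30e-5p, lay below 0 with a median of -0.35. Of those without a match, miR-30b-5p also lay below 0, at -0.50, and miR-30d-5p lay above, at 0.17 (-0.003 rescaled). The 3 members of miR-99/miR-100 lay above 0 with a median of 0.91, and the 3 of miR-125/miR-351 with a median of 0.82, although in each family 1 member turned below 0 after rescaling. The 4 tested miR-181 members, which are known from lymphocyte development, lay above 0 with a median of 0.56. Singly, miR-99b-5p stood at 1.45 (SE 0.46, adjusted p = 0.143) and miR-125b-5p at 0.82 (SE 0.28, adjusted p = 0.149). None of the members of these families passed, and the families were grouped after values had been seen.

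**Figure D3:**
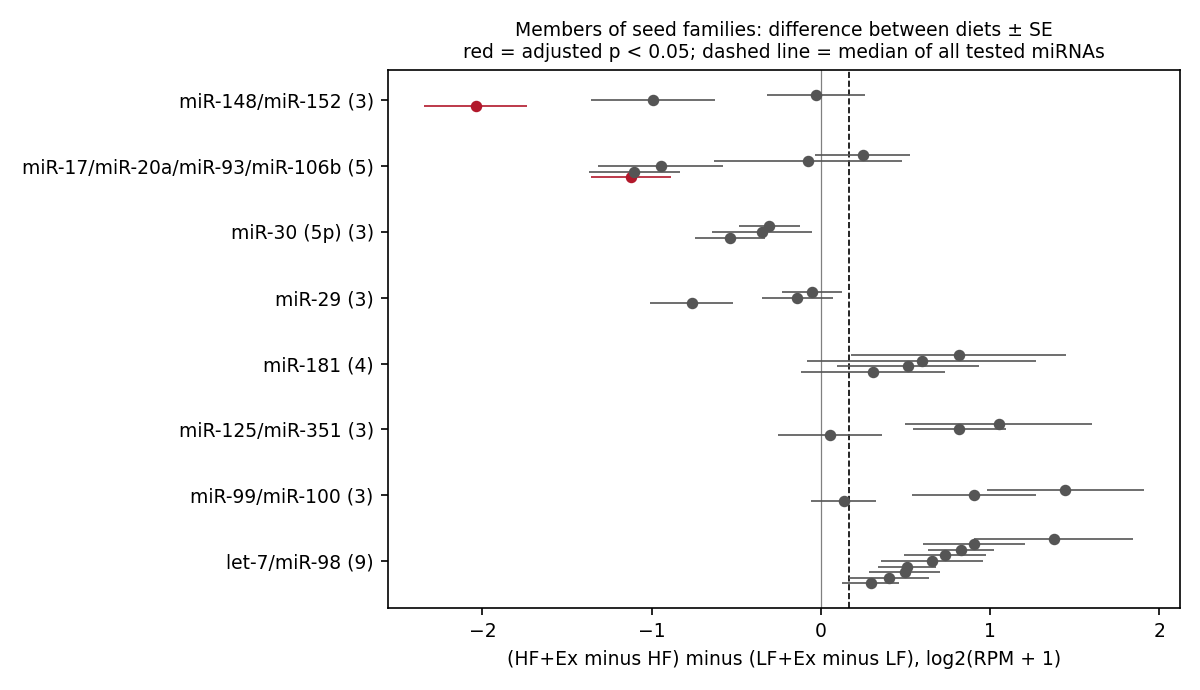
Difference between the diets (horizontal axis, log2(RPM + 1)), with SE, of the tested members of 8 seed families that matched a RefSeq sequence. The tested miR-30b-5p (-0.50) and miR-30d-5p (0.17) had no match and are not drawn. The number of members drawn is in parentheses, red marks an adjusted p under 0.05 and the dashed line is the median of 351 miRNAs. Only miR-148a-3p and miR-17-5p are red, and the let-7/miR-98 members spread from 0.29 to 1.38.

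By function, 2 of 21 tested members of the lipid and sterol list were called lower, miR-148a-3p and miR-33-5p, against 3 of all 351 (0.855%). In this list 10 lay above 0 and 11 below, with a median of -0.11 (-0.28 rescaled), against 0.17 over all 351 (about 0 rescaled). The other members included miR-122-5p, which sustains cholesterol synthesis in liver, at 0.23 (SE 0.19), miR-27b-3p at -0.11 (SE 0.20) and miR-223-3p at 1.32 (SE 0.69), none of which passed. In the insulin and glucose list 1 of 22 was lower, miR-33-5p, with 16 above 0 and a median of 0.20 (0.03 rescaled), where 219 of all 351 lay above 0. In the hepatocyte list 1 of 13 was lower, miR-148a-3p, with 7 above 0 and a median of 0.09, which turned to -0.08 after rescaling. miR-192-5p at -0.32 (SE 0.21) and miR-194-5p at -0.20 (SE 0.21), from this list, did not pass. All 3 lists were assembled with results of these data known, so these counts are no independent evidence.

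Markers of other cell types were read in the same contrast. In bulk tissue, fewer cells of a type and less RNA per cell cannot be told apart. None of the 12 tested miRNAs of the leukocyte and Kupffer cell list passed, 9 lay above 0, and the median was 0.60 (0.43 rescaled). Their summed RPM was 6114 to 8475 in HF+Ex livers, against 6813 to 8674 in HF livers. In LF+Ex livers it was 3698 to 4860, against 3006 to 9086 in LF livers, where the top value is LF 1. On LF all 12 lay below 0 (median -0.50). Without LF 1, 9 of 12 lay below 0 on LF with a median of -0.14, and the difference between the diets had a median of 0.32 with 8 of 12 above 0. The LF sums without LF 1, 3006 and 4553 RPM, overlapped those of LF+Ex. The defining miR-142-3p had a difference between the diets of -0.13 (SE 0.50), and no library listed it or miR-223-3p at 0.

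The epithelial list had 8 of 12 tested members above 0 and a median of 0.27. Without LF 1, but with LF+Ex 1 kept, the median was -0.15, with 5 of 12 above 0. Sums of the list were 3698 to 4226 RPM in HF+Ex, 4191 to 4814 RPM in HF and 3677 to 8784 RPM in LF. In LF+Ex they were 3734 to 6959 RPM, where the top value is LF+Ex 1 and the other libraries stood at 3734 and 3737 RPM. The stellate and mural list had 7 of 10 above 0 and a median of 0.33 (0.15 without LF 1, with 6 of 10 above 0), with sums of 10100 to 12180 RPM in HF+Ex, 10940 to 12100 RPM in HF, 7807 to 10330 RPM in LF+Ex and 9878 to 15550 RPM in LF. None of these members passed, and the part of these cells in the results was not tested. With LF 1 and HF+Ex 1 left out together, 5 miRNAs were called, the 3 of the full set with miR-20a-5p and miR-106b-5p. Of muscle miRNAs, miR-1a-3p stood at 8.03 to 15.2 RPM in HF+Ex livers and 4.28 to 18.2 RPM in HF livers, and at 8.66 to 39.8 RPM in LF+Ex livers and 20.0 to 132 RPM in LF livers. The top LF value of miR-1a-3p was in LF 2, and its difference between the diets was 1.77 (SE 1.10, adjusted p = 0.412).

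The imprinted Dlk1-Dio3 cluster, which is expressed from the maternal copy, had 10 of 13 tested members above 0, with a median difference between the diets of 0.62 (0.47 rescaled). Without LF 1 it was 0.19, with 8 of 13 above 0. Its summed RPM was 71.3 to 125 in HF+Ex livers, against 55.0 to 141 in HF livers. In LF+Ex livers it was 96.4 to 122, against 89.0 to 288 in LF livers, with the top value again in LF 1. The Sfmbt2 intron cluster had 7 of 7 above 0 with a median of 1.22 (0.85 without LF 1), but these are only 2 separate measurements. Its 5 miR-466 entries had identical values, at 1.22 (SE 0.67), as did miR-669a-3p and miR-669o-3p, at 0.49 (SE 0.58). The erythroid list had a median of 0.65 over 5 tested members (0.48 rescaled, 0.35 without LF 1), with 4 above 0. Its most abundant members lay below that median, miR-451a at 0.001 (SE 0.51) and miR-144-3p at -0.93 (SE 0.54). The miR-34 family had 0.58 over 3 (0.41 rescaled, 0.24 without LF 1). The endothelial list had 0.26 over 5 (0.09 rescaled) and the neuronal list 0.20 over 7 (0.04 rescaled). Of the neuronal list, miR-124-3p (46.0 RPM) and miR-9-5p (48.9 RPM) were highest in LF 2. Medians turned below 0 on rescaling in the miR-30 family with both arms (0.09 over 11, -0.06 rescaled), the miR-378 family (0.03 over 4, -0.14 rescaled) and the fragment-like list (0.01 over 5, -0.15 rescaled). The fragment-like median was also -0.37 without HF+Ex 1. The miR-29 family had -0.05 over 7 and the cluster of miR-322 and miR-503 had -0.07 over 9 (-0.22 and -0.23 rescaled). The let-7 list with both arms had 0.45 over 16 (0.28 rescaled, 0.43 without LF 1), and the miR-181 list had 0.56 over 6 (0.39 rescaled, 0.13 without LF 1). The pancreatic list (0.27) and the muscle list (1.37) had 2 tested members each, and the hypoxia list had 1, miR-210-3p, at -0.15. Both tested muscle members, miR-1a-3p and miR-133a-3p, were highest in LF 2, and no list median was computed without LF 2. No member of these lists or clusters was called, against 3 of 351 overall.

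**Figure D4:**
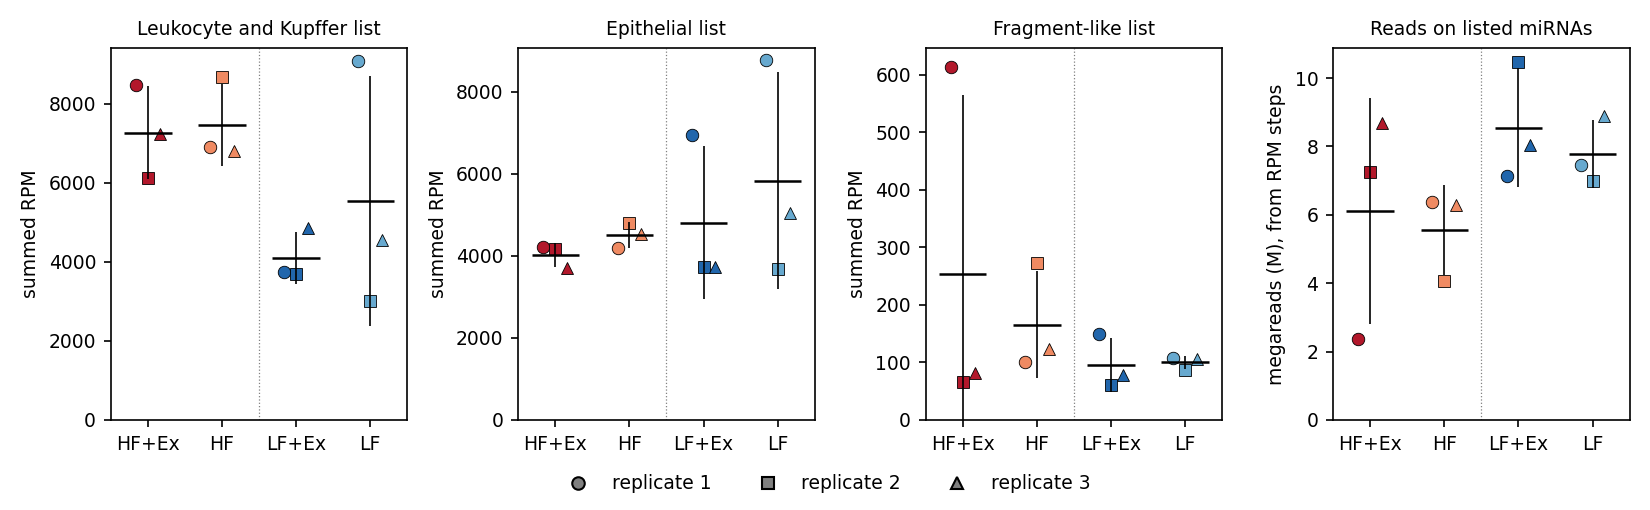
Summed RPM of the leukocyte and Kupffer, epithelial and fragment-like lists, and megareads (M) on listed miRNAs, in each library of HF+Ex, HF, LF+Ex and LF (linear axes from 0; shapes are replicate numbers, lines means, bars SD, clipped at 0, n = 3). LF 1 is highest in the first and second panels, and HF+Ex 1 is highest in fragment-like entries, at 613 RPM, and lowest in depth, at 2.38 M.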

How the data were processed

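Small RNA of liver was sequenced in 18 libraries. The deposited values are RPM per mature miRNA, per the file headers, and 1 read is worth a fixed RPM in each library: all values were whole multiples of it (100%, tolerance 0.001 reads), which gave the depth. Reads carry no molecular identifiers. Per the submitters' processing notes, the genome build is mm10. The sources used here name no aligner, counter or miRNA annotation. RPM is a share, so one abundant miRNA moves the others.

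limma 3.58.1 in R 4.3.3 was run on log2(RPM + 1), where the pseudocount of 1 RPM understates changes of low miRNAs, with all 18 libraries in 1 fit, 1 coefficient per group and an intensity trend. Tests were two-sided, with Benjamini-Hochberg adjustment over 351 miRNAs and a threshold of 0.05. The 4 comparisons were HF+Ex minus HF, LF+Ex minus LF, their difference and their average. Groups and replicate numbers came from the titles. Alternatives were 5 RPM as pseudocount, a filter of 50 RPM, no filter, median-of-ratios rescaling, a 12-library fit, the replicate block, no trend, identical entries counted once and leaving out each library. After seeing the data, leaving out LF 1 with HF+Ex 1 and scaling without miR-122-5p were added. The procedure was tested on simulated data with independent noise per miRNA and effects in HF+Ex only. Those data hold no outlier libraries and no shared composition, so the test does not cover them.

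Named are the 12 miRNAs with the smallest p for the difference (6 for other comparisons), the 10 largest non-overlapping ones, and members and opposite arms from 23 lists; further relatives were chosen after their values were seen. The members and lists were chosen with earlier results of these data known. Of 351 miRNAs, 288 matched a RefSeq mature sequence, and seed families were formed from these. Figures used matplotlib 3.10.9 and pandas 2.3.3 in Python 3.11.15.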

Additional observations from a re-analysis of the deposited data

Results flagged for a closer look

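For 3 miRNAs the exercise difference on HF departed from that on LF by a test of the departure itself. miR-148a-3p had -2.04 on the log2 scale, lower with exercise in 3 of 3 HF+Ex libraries against all HF libraries and higher in 3 of 3 LF+Ex libraries against all LF libraries. miR-33-5p had -2.07, with the same separation of its libraries. miR-17-5p had -1.12, with separation on HF only, and its call was lost in 10 of 12 omissions of a single library.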

How the results depend on the processing

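Of 957 values of named miRNAs under the alternatives, 886 kept direction and side of the threshold. Of the rest, 43 kept direction but no longer passed, 28 newly passed and 0 changed direction. Most of the 44 named results had not passed in the main fit, so they had no call to lose. Losses for the difference between diets were all of miR-17-5p, in 10 of 22 alternatives. On HF they were of miR-148a-3p in 13, miR-20a-5p in 14 and miR-17-5p in 6. The count for the difference between diets was 3, and it was 5 with no filter, 8 rescaled, 12 in the 12-library fit, 5 without LF 1 and HF+Ex 1 together, and 2 to 4 with 1 library left out. The HF count was 3, and it was 1 with no filter, rescaled, in the 12-library fit, with no intensity trend or scaled without miR-122-5p, 6 without LF 1 and HF+Ex 1 together, and 0 to 5 with 1 library left out. The LF count was 0, and it was 1 in the 12-library fit (miR-148a-3p, higher) and 0 to 2 with 1 library left out. The averaged count was 0 throughout. The causes were not tested.

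With the replicate block, 3 miRNAs were called for the difference between diets, 2 on HF and 0 on LF. The numbers gave no clear sign of pairing: over 18 pairs with the same number, deviations correlated between -0.365 and 0.189, 3 over 0.1. Of 12 libraries, 1 correlated best with its own number. On HF, miR-148a-3p lost its call rescaled, with no filter, with no trend, scaled without miR-122-5p, under the replicate block and in 8 of 12 omissions. Planned count models on reads recovered from the RPM steps were not run: the smallest listed value stands for 2 reads, so single reads could not be checked and a listed 0 can be 0 reads or 1, and the values were kept as RPM. Groups of 3 libraries and a depth of 2.38 M reads in HF+Ex 1 limit the precision for low miRNAs such as miR-33-5p.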
